A study of Mus musculus with 8 samples.

Results

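Of 8 arrays labelled hippocampus, 3 carried a strong signal for Hcrt, the gene of the hypothalamic peptide precursor of the orexins, and 5 did not. The 3 arrays were normal 2, mutant 1 and mutant 4, and they were chosen by a log2 value of Hcrt above 7 on the 1 probe set that measured it. They are called the high arrays below, and normals 1, 3 and 4 with mutants 2 and 3 are called the low arrays. Just inside the limit lay mutant 1 at 9.58, and just outside it lay mutant 2 at 4.80. Because a measured value made these classes, every difference between them is given as a description with its standard error and without a p-value.

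Each array held the right hippocampus of 1 mouse of the B6.C-H2-Kbm1/ByBir background. The 4 mutant mice (Gusb mps/mps) lack both working copies of the gene of beta-glucuronidase, a lysosomal enzyme, and model mucopolysaccharidosis VII. The 4 normal mice (Gusb mps/+) were carriers with 1 mps copy, so all 8 animals held the allele. Animals of both genotypes shared cages, per the labels. The high arrays came from a male normal mouse of 25.6 weeks (normal 2), a female mutant of 38.3 weeks (mutant 1) and a female mutant of 19.6 weeks (mutant 4). Among the low arrays, normals 1 and 4 were females of 38.3 and 14.6 weeks and normal 3 was a male of 19.6 weeks. Mutants 2 and 3 were males of 25.6 weeks. The labels name 1 animal per array and describe no repeat of an animal. The replicate numbers follow the order of deposit and pair nothing.

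The hypothalamus lies below the thalamus and holds small groups of neurons that make peptide hormones and transmitters. Orexin neurons sit in its lateral part and promote wakefulness and feeding. Vasopressin (Avp) and oxytocin (Oxt) are made by large neurons of the supraoptic and paraventricular nuclei, which send axons to the posterior pituitary. Vasopressin is also made in the suprachiasmatic nucleus, the circadian clock, and the cell bodies of orexin neurons are not found in the hippocampus.

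The 3 genes that moved most with the classes were Hcrt, Avp and Oxt, and 250 bases before a start site of each are shown because all 3 moved together. The sequences are those of RefSeq on GRCm38.p6 and are written 5' to 3' on the strand of the gene. They span chr11:100762932-100763181 (minus strand) for Hcrt, chr2:130582589-130582838 (minus strand) for Avp and chr2:130575919-130576168 (plus strand) for Oxt. Capitals mark matches, on either strand and with no overlap, to 4 motifs. The core promoter element was searched as TATAAA. The core of cyclic AMP response elements was searched as TGACG. The site that each partner of a nuclear receptor pair binds was searched as AGGTCA. The E box, bound by clock factors among others, was searched as CACGTG.
Hcrt: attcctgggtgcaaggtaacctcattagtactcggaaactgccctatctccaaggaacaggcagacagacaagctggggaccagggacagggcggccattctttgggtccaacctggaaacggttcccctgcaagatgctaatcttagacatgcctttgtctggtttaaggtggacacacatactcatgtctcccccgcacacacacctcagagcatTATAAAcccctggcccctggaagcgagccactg
Avp: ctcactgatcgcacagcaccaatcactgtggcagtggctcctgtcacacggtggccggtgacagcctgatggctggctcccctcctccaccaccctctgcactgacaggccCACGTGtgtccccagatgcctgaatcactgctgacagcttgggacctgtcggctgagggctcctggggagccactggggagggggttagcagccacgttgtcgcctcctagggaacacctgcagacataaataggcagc
Oxt: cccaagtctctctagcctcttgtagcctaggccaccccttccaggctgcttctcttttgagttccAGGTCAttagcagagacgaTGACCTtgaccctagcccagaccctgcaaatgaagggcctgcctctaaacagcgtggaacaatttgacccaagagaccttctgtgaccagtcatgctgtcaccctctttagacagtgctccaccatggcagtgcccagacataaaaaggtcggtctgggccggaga
The Hcrt window held TATAAA, starting 33 bases before the start site, as did 12.4% of 32851 promoter windows of the same length. The Avp window held 1 CACGTG, starting 139 bases before the start site, as did 6.02% of all windows. Oxt held AGGTCA 2 times, as TGACCT on the reverse strand at the second place, and 14.0% of all windows held it at least 1 time. TGACG was in none of the 3 windows and in 17.8% of all windows. The E box was written out as CACGTG after the sequences had been seen, and a match describes letters and not a site of binding. Oxt (2:130574519-130577054) and Avp (2:130580620-130582588) are neighbours on chromosome 2, 3565 bases apart, whereas Hcrt lies on chromosome 11 (11:100761693-100762931). The start site behind the Oxt window lies inside the span given for Oxt, and the windows of Hcrt and Avp adjoin the ends of theirs.

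Hcrt had log2 values of 10.35 in normal 2, 9.58 in mutant 1 and 9.88 in mutant 4. The 5 low arrays lay between 4.51 and 4.80, at 4.73, 4.70 and 4.75 in normals 1, 3 and 4 and at 4.80 and 4.51 in mutants 2 and 3. All 5 low values lay together, above the highest value of 27 probe sets for bacterial transcripts that were not in the samples (3.72), and far below the 3 high ones. The adjusted difference, high minus low with genotype as a term, was 5.31 ± 0.16 (SE), 39.7-fold. Since Hcrt chose the arrays, this size describes the choice. In bulk tissue, fewer cells of a type and less RNA per cell cannot be told apart.

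High values stood in 1 normal and 2 mutants. The mean of Hcrt was 6.13 ± 2.81 over the normals and 7.19 ± 2.93 over the mutants (SD, n = 4 each). The mutant minus normal difference of 1.06 gave a two-sided exact permutation p = 0.914, where 70 arrangements allow 0.0286 at the smallest. Since the Hcrt values lay in 2 separate groups, this p largely restates the split of 1 normal and 2 mutants. The genotypes overlapped, and the p does not show that they were alike.

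Avp had log2 values of 12.31, 10.29 and 8.50 in normal 2, mutant 1 and mutant 4. Its low arrays were at 5.73, 6.12 and 5.29 in normals 1, 3 and 4 and at 7.03 and 5.80 in mutants 2 and 3. The classes did not overlap, and among high arrays the values lay farther apart for Avp than for Hcrt. The difference was 4.53 ± 0.80 (SE), 23.1-fold, and without normal 2 it was 2.98, 7.90-fold.

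Oxt, the gene of the oxytocin precursor, had log2 values of 10.60, 10.97 and 9.12 in normal 2, mutant 1 and mutant 4. Normals 1, 3 and 4 read 6.34, 6.61 and 7.21, and mutants 2 and 3 read 7.0 and 6.05. All 3 high arrays lay above all 5 low ones, by a difference of 3.67 ± 0.45 (SE). The order of the high arrays changed from gene to gene, with mutant 1 highest for Oxt and normal 2 highest for Hcrt and Avp.

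**Figure D1:**
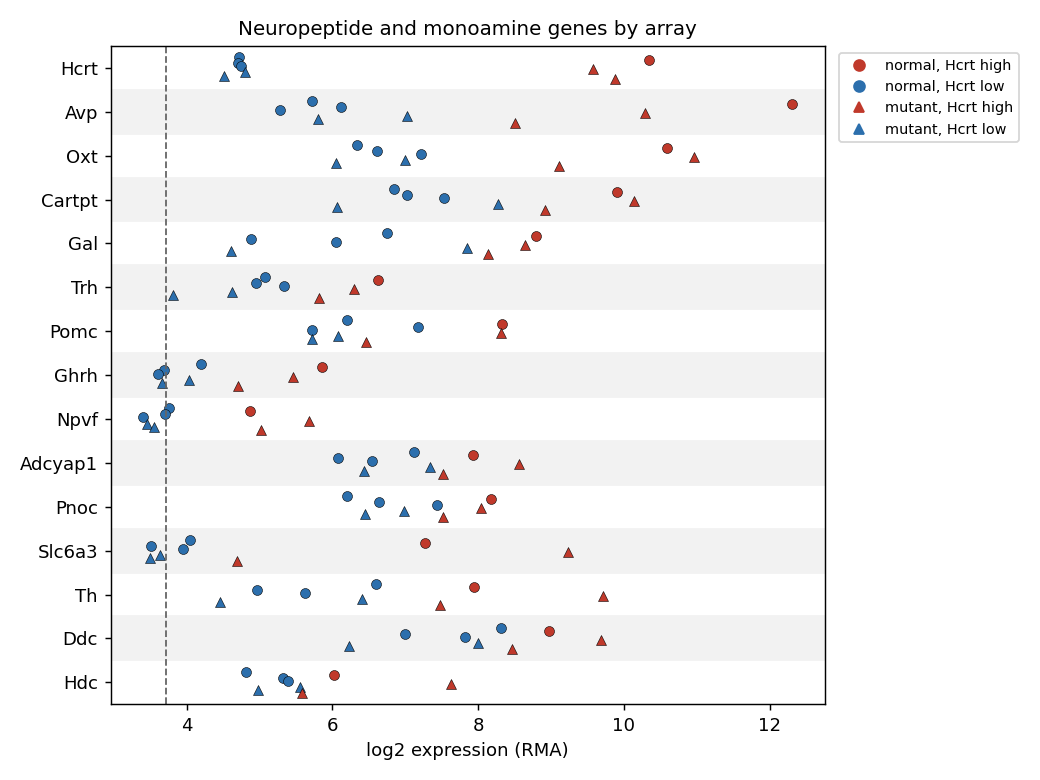
Log2 expression (horizontal axis) of neuropeptide genes and genes of monoamine neurons in each of the 8 arrays. Each point is 1 array, circles are normal mice, triangles are mutants, red marks high and blue low Hcrt arrays, and the dashed line is the highest absent bacterial control (3.72). For Pomc a low array (normal 3, 7.18) lies above a high one (mutant 4, 6.46). The other genes drawn were all taken from the 43 counted below as higher, so the rule for that count keeps their red and blue points apart. Of 21 genes measured in the hypothalamic peptide lists, 8 were among the 43. Apart from Pomc, the peptide genes that overlapped are not drawn.

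Over all 12393 genes, 43 were higher in the high arrays (0.347%) and 19 were lower (0.153%), where a gene counted when the difference was at least 1 log2 unit and the classes did not overlap. Without a minimum size, the high arrays lay above all low ones for 688 genes (5.55%) and below all of them for 501 (4.04%). The median difference of all genes was 0.022. Lists of hypothalamic genes held 19 of the 43, which is 44.2% of these genes and 15.6% of the 122 list members measured. None of the members were among the 19 lower genes. The 19 higher members include Hcrt, which chose the arrays, and Slc6a3, Th and Ddc, which also mark midbrain neurons. The lists were chosen with earlier results of these data known. Of the 122, 91 differed upward, with a median of 0.29, and of all 12393 genes 6691 did so. A further 26 listed genes, including the peptide genes Pmch, Agrp, Kiss1, Crh, Gnrh1 and Nms, were not analysed here.

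Peptide genes of the lateral hypothalamus other than Hcrt were led by Cartpt and Gal. Cartpt, which encodes a peptide that reduces feeding, read 9.91, 10.14 and 8.92 in normal 2, mutant 1 and mutant 4. It read 6.84, 7.03 and 7.53 in normals 1, 3 and 4 and 8.28 and 6.07 in mutants 2 and 3. Mutant 2 came closest to the high arrays, and the difference was 2.53 ± 0.52 (SE). Gal, the gene of galanin, a peptide co-released by many hypothalamic neurons, read 8.80, 8.64 and 8.13 in the same high arrays. Its low arrays spread from 4.61 in mutant 3 to 7.85 in mutant 2, with normals 1, 3 and 4 at 6.75, 4.88 and 6.05. The difference was 2.48 ± 0.75 (SE), and the classes were separated by the small gap between mutants 2 and 4.

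Trh, the gene of thyrotropin-releasing hormone, read 6.63, 6.30 and 5.82 in normal 2, mutant 1 and mutant 4. It read 5.08, 4.95 and 5.34 in normals 1, 3 and 4 and 4.62 and 3.82 in mutants 2 and 3. The difference was 1.70 ± 0.23 (SE), and in both genotypes the high arrays were the higher ones. Adcyap1, which encodes the peptide PACAP, differed by 1.23 ± 0.35 (SE), with 7.51 to 8.56 in high and 6.08 to 7.34 in low arrays. The other members of the lateral list that were measured overlapped between classes. Nptx2, which encodes a pentraxin and not a peptide precursor, differed by -0.09. The peptide genes differed by 0.82 for Nts (neurotensin), -0.08 for Tac1 (substance P), -0.31 for Pdyn (dynorphin) and -0.72 for Penk (enkephalin). For Tac1, Pdyn and Penk these values average opposite directions. Within mutants Penk differed by 1.12, Tac1 by 0.91 and Pdyn by 0.66, and within normals by -3.18, -1.39 and -1.60. Of the 10 members of the lateral list measured, 5 were thus among the 43, with a median difference of 1.02. The 5 and the median include Hcrt, which chose the arrays.

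Of 6 genes measured in the list for peptides of the supraoptic and paraventricular nuclei, 4 were among the 43 (Avp, Oxt, Gal and Trh). Cck (-0.00) and Pdyn were not. The peptide lists share members, such as Gal and Trh with the lateral list, and together they held 8 of the 43. The arcuate nucleus, which controls feeding and pituitary hormones, was represented by 7 peptide genes with a median difference of 1.58. Cartpt, Gal and Ghrh were among the 43. Ghrh, the gene of growth hormone-releasing hormone, read 5.86, 5.46 and 4.70 in normal 2, mutant 1 and mutant 4 against 3.60 to 4.20 in the low arrays. Low values of Ghrh lay at or near the absent controls, and the difference was 1.58 ± 0.27 (SE). Pomc, which encodes the precursor of melanocortins, read 8.33, 8.32 and 6.46 in normal 2, mutant 1 and mutant 4. Its low arrays read 6.21, 7.18 and 5.72 in normals 1, 3 and 4 and 6.07 and 5.73 in mutants 2 and 3. Mutant 4 thus fell within the low range for Pomc while it was high for Hcrt. Tac2 (neurokinin B, 1.16 ± 1.16), Sst (somatostatin, 0.24) and Npy (-0.24) overlapped.

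Avp was the 1 suprachiasmatic peptide gene among the 43. Vip, which marks the light-receiving core of that nucleus and cortical and hippocampal interneurons, differed by -1.93 ± 1.19 (SE). It read 5.07, 5.02 and 4.24 in normal 2, mutant 1 and mutant 4, and mutant 2, a low array, read 3.81. Grp differed by -0.01, and Prok2 (0.12) lay below the highest absent control in all 8 arrays. Npvf, the gene of RFamide-related peptides made in the dorsomedial hypothalamus, and Pnoc, the gene of prepronociceptin, were named after their values were seen. Npvf read 4.87, 5.67 and 5.03 in normal 2, mutant 1 and mutant 4, against 3.40 to 3.76 in the low arrays, which lie about the absent controls. Pnoc differed by 1.22 ± 0.31 (SE), with 7.52 to 8.17 in high and 6.20 to 7.44 in low arrays.

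Genes of monoamine neurons moved with Hcrt in all 4 members measured. Slc6a3, the dopamine transporter, read 7.28, 9.23 and 4.69 in normal 2, mutant 1 and mutant 4. It read 4.05, 3.51 and 3.95 in normals 1, 3 and 4 and 3.64 and 3.50 in mutants 2 and 3. The low arrays were close to the absent controls, and mutant 4 stood not far above them, while mutant 1 and normal 2 were well above. The difference was 3.41 ± 0.89 (SE). Th, the rate-limiting enzyme of dopamine synthesis, read 7.94, 9.71 and 7.48 in the same high arrays and 4.46 to 6.60 in the low ones, a difference of 2.75 ± 0.69 (SE). Ddc, which makes dopamine from its precursor, differed by 1.67 ± 0.52 (SE). Hdc, which makes histamine in the tuberomammillary nucleus and in mast cells, read 6.03, 7.62 and 5.58, and mutant 4 stood only 0.03 above the highest low array (mutant 2, 5.56).

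Th, Ddc and Slc6a3 also mark dopamine neurons of the midbrain, so other midbrain genes are given beside them. Of 9 such genes 8 differed upward, with a median of 1.11 (0.73 without mutant 3). Among the 43 were 4, namely these 3 and Foxa1, a transcription factor of midbrain dopamine neurons. Ret, a receptor of growth factors that support dopamine neurons, differed by 1.11 ± 0.39 (SE) and overlapped. Foxa1 read 5.23 in mutant 1, while all other arrays lay between 2.25 and 3.53, below the highest absent control. The midbrain factor En1 stayed below the absent control in all 8 arrays, and the serotonin transporter gene Slc6a4 read 3.50 to 3.83 in all 8. Mutant 1 was thus the 1 array with Foxa1 above the absent controls, and the part of midbrain tissue in the monoamine values was not tested.

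Of 21 other genes known to be enriched in the hypothalamus, 7 were among the 43, and all 21 differed upward with a median of 1.44. Baiap3, which acts in the release of dense-core vesicles, read 9.52, 9.74 and 8.91 in normal 2, mutant 1 and mutant 4. Normal 4 came near at 8.80, and the other low arrays read 7.37, 5.32, 8.47 and 4.96 in normals 1 and 3 and mutants 2 and 3. The difference was 2.50 ± 0.98 (SE), and without mutant 3 it was 1.65. Asb4, an ubiquitin ligase component of arcuate neurons, differed by 2.40 ± 0.54 (SE), with 5.54 to 6.91 in high and 2.94 to 4.90 in low arrays. Cited1, a transcription coactivator, differed by 2.14 ± 0.47 (SE), and Gpx3, a secreted glutathione peroxidase, by 2.12 ± 0.49 (SE). Dlk1, an imprinted gene of neuroendocrine cells, differed by 2.21 ± 0.54 (SE) but overlapped, since mutant 4 (5.90) lay below normal 4 (6.10).

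Genes that process and store peptides moved less. Of 11 measured, Resp18, a protein of dense-core vesicles, was the 1 among the 43, with 11.61, 11.75 and 11.13 in normal 2, mutant 1 and mutant 4 against 9.19 to 10.74 in low arrays. The median of the 11 was 0.58 (0.33 without mutant 2 or mutant 3). Pcsk1n (0.69), Pcsk1 (0.67) and Chga (0.66) differed upward, and Cadps2 (-0.62), Chgb (-0.44) and Scg3 (-0.34) downward. Most of these genes are used by many kinds of neurons.

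None of the transcription factors that define hypothalamic regions met both parts of the call rule. Of 32 measured, 0 were among the 43 (0.347% of all genes), with a median of 0.37 (0.22 without mutant 3). Of the 32, 26 differed upward, and 25 had a mean above the absent controls in the class where they were higher. For 6 of the 32 the high arrays lay above all low ones without reaching the minimum of 1. Such a separation, at any size, held for 5.55% of all genes. The regional markers Nkx2-1 (3.75 to 4.42 over all 8 arrays), Sim1 (3.23 to 3.65) and Otp (4.12 to 4.40) overlapped between classes and lay near the absent controls in every array. The factors with the largest differences were Irx3 (1.55 ± 0.59), Isl1 (1.48 ± 1.00) and Lhx6 (-1.4 ± 0.62), and all overlapped. Isl1 differed by 2.78 within mutants and by -0.25 within normals. It read 3.27 in mutant 3, a low array, and 7.44 to 8.88 in the other arrays. Irx3 was at 6.86 to 6.98 in the high arrays and at 6.89 in mutant 2.

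Receptors for the hormones and peptides were also outside the 43. Calcr, the calcitonin receptor, differed by 2.26 ± 0.78 (SE), with 5.71, 6.43 and 4.92 in normal 2, mutant 1 and mutant 4, but normal 4 read 6.01. None of the other 10 hormone receptor genes measured differed by more than 0.36, and Lepr, the leptin receptor, differed by 0.22. The median was 0.071 for 11 hormone receptors and 0.043 for 15 peptide receptors. Tanycyte genes (10 measured, median 0.084), which mark the glia lining the third ventricle, and anterior pituitary genes (9 measured, median 0.060) also held 0 of the 43. As the 43 are 0.347% of all genes, lists this short would seldom hold any of them. High arrays lay above all low ones for 2 tanycyte genes, among them Gpr50 (0.90), and for 2 pituitary genes, among them Lhb (0.29).

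Outside these lists, 24 further genes were among the 43. Agt, the angiotensinogen gene of astrocytes, read 9.77, 10.07 and 10.13 in normal 2, mutant 1 and mutant 4 and 9.67 in mutant 2, with 7.04 to 8.05 in the other low arrays. It was the 1 of 13 astrocyte genes among the 43, and the median of that list was 0.077. Itih3, a secreted matrix-binding protein of the same list, differed by 1.62 ± 0.61 (SE) and overlapped. Sytl4 (granuphilin, a protein of secretory granules) differed by 1.96 ± 0.43 (SE), but its other probe set differed by -0.015 and lay below the absent controls. Ebf3, a transcription factor, differed by 1.81 ± 0.44 (SE). H2-Q2, a class I histocompatibility gene with near-identical relatives, read 4.68, 5.70 and 3.91 in normal 2, mutant 1 and mutant 4. Its low arrays (2.25 to 3.49) all lay below the highest absent control, and probes of such families cannot always tell members apart. Where genes of both directions had more than 1 probe set, 32 of 34 other probe sets had the same sign, and 16 of them differed by at least 1. Most of the 34 overlapped between the classes and so did not meet the call rule themselves.

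**Figure D2:**
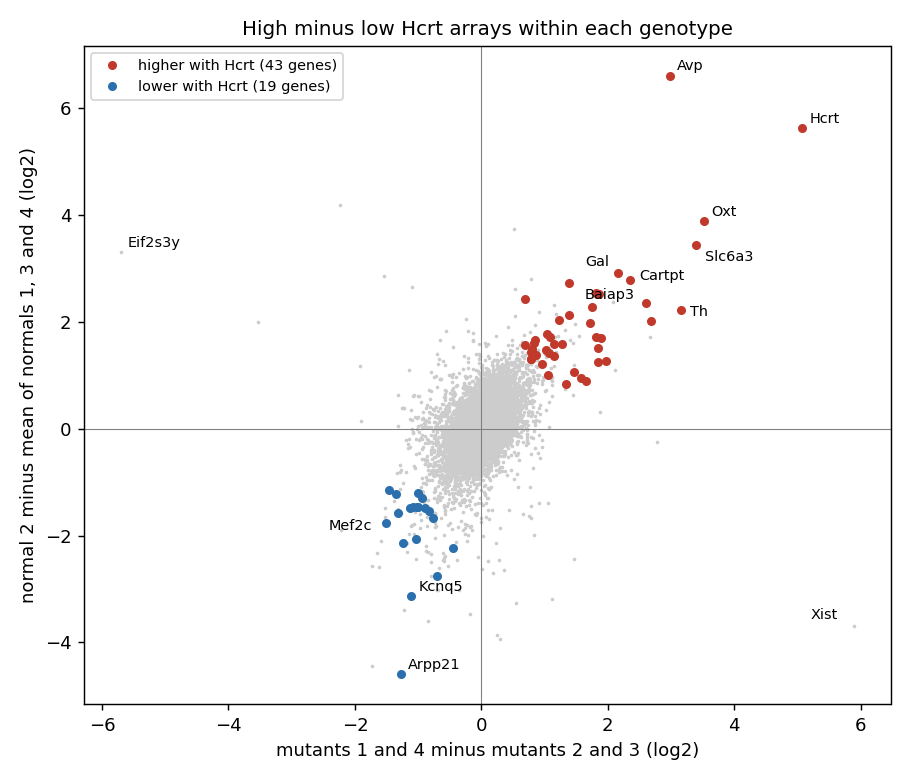
High minus low difference in log2 units within mutants (mutants 1 and 4 minus mutants 2 and 3, horizontal axis) and within normals (normal 2 minus the mean of normals 1, 3 and 4, vertical axis). Each point is 1 gene, red marks the 43 higher and blue the 19 lower genes, and grey the rest. Of the 43, 30 differ by at least 1 in both genotypes, and Hcrt, Avp and Oxt lie farthest out in the upper right.

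The direction of each of the 43 genes within both genotypes is fixed by the rule that the classes do not overlap. The minimum of 1 also binds the sizes, since the fitted difference is a weighted mean of the differences within normals and within mutants. A count of genes at least 1 apart in both genotypes is therefore partly set by the rule. In normals, where normal 2 was the 1 high array, and in mutants, where 2 arrays were high, 30 of the 43 differed by at least 1 in both, and 12 of the 19 lower genes did so downward. The 3 high arrays were not alike. Mutant 1 was the highest of them for 30 of the 43 genes and normal 2 for 11. Mutant 4 was the lowest for 36 of the 43, although its Hcrt value lay between those of the other two. Among the 5 low arrays mutant 2 was the highest for 27 genes, normal 4 for 8 and normal 1 for 6.

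Mutants 4 and 2 were the most alike of all pairs of arrays, with Pearson's r = 0.994 across probe sets, which are not independent replicates. They fell on opposite sides of the Hcrt limit, and they differed in sex and age as well. Only 32 genes were at least 1 log2 unit apart, 19 higher in mutant 4 (0.153% of genes) and 13 lower (0.105%). Of the 19, 8 were among the 43, namely Hcrt (5.08), Oxt (2.12), Npvf (1.57), Avp (1.47), Asb4 (1.4), Trh (1.20), Th (1.07) and Slc6a3 (1.06). The genes outside the 43 were named after their values were seen and included the sex-linked Xist (5.42), Eif2s3y (-5.45) and Kdm5d (-3.88), Calcr (1.59), and Lcn2 (-3.40), an acute-phase gene. Over the 43 genes the median difference of the pair was 0.47, and over all genes it was 0.015 with quartiles of -0.14 and 0.17, but the 43 had been chosen with both arrays in view. With 1 array on each side, these values have no replicate check.

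**Figure D3:**
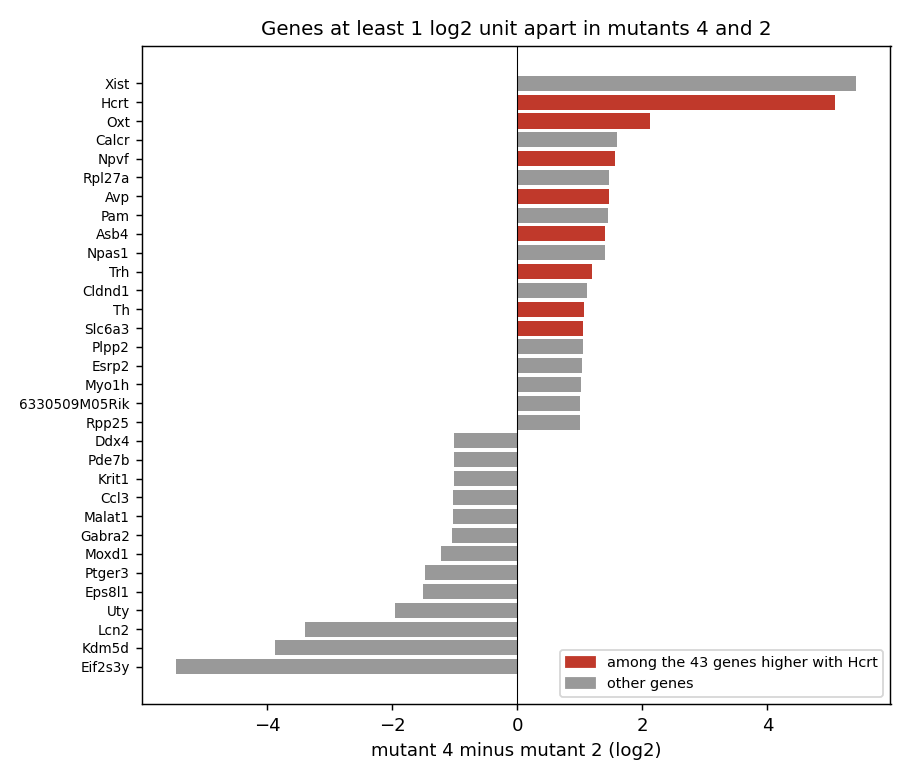
Difference between mutant 4 and mutant 2 in log2 units (bars) for the 32 genes at least 1 unit apart. Red bars are among the 43 genes higher in the high arrays and grey bars are other genes, and Hcrt (5.08) and Oxt (2.12) have the longest red bars.

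The lower genes were led by Arpp21, Kcnq5, Lmo7 and Mef2c. Arpp21, a cyclic AMP-regulated phosphoprotein, read 6.35, 6.70 and 6.91 in normal 2, mutant 1 and mutant 4. It read 11.06, 10.76 and 11.02 in normals 1, 3 and 4 and 6.93 and 9.21 in mutants 2 and 3. Mutant 2 lay only 0.02 above mutant 4, so the classes barely separated in mutants, and the difference was -2.70 ± 0.75 (SE). Without normal 2 it was -1.27. Another Arpp21 probe set differed by -2.86 and overlapped, since mutant 2 (5.86) lay below mutant 4 (5.97). A further Arpp21 probe set differed by -0.90 and separated the classes. Kcnq5, a potassium channel, differed by -1.98 ± 0.50 (SE) and by -1.11 without normal 2, and Mef2c, a transcription factor of excitatory neurons, by -1.62 ± 0.37 (SE). Lmo7, a LIM domain protein, read 6.48 to 7.15 in the high and 7.82 to 8.98 in the low arrays, a difference of -1.62 ± 0.26 (SE). Others of the 15 largest decreases were Lrrk2 (-1.21), Ccn2 (-1.21) and Kcnab1 (-1.16). Without normal 2, Lrrk2 differed by -0.44 and Kcnab1 by -0.77, both under the minimum of 1. The clock genes Per2 (5.76 to 5.94 in high, 6.58 to 7.73 in low arrays) and Npas2 (-1.09) were also among the 19 and were named after their values were seen. Their other probe sets differed by -0.23 (Per2) and -0.95 (Npas2), and both overlapped.

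Markers of neighbouring tissue also differed between arrays. Thalamic genes averaged 9.0, 7.87 and 9.35 in normal 2, mutant 1 and mutant 4, and 8.42, 7.37, 6.69, 9.49 and 6.57 in normals 1, 3 and 4 and mutants 2 and 3. They differed upward in 15 of 16, with a median of 1.18, and 0 of 16 separated the classes (5.55% of all genes did so upward). This median was 0.35 without mutant 3, 0.71 without normal 2, 0.77 without mutant 4 and 2.01 without mutant 2, the array with the highest thalamic mean. The largest were Prkcd (1.73 ± 0.90), Tnnt1 (1.65 ± 1.30) and Cbln1 (1.64 ± 0.69). Striatal genes averaged 10.25, 10.22 and 9.12 in normals 1, 3 and 4 and 6.75 to 7.36 in the other 5 arrays. All 11 differed downward with a median of -0.92, but this median turned to 0.24 without normal 2, the 1 high array among the normals. Within mutants Ppp1r1b differed by 0.24 and Ido1 by 0.30, against -3.86 and -3.94 within normals. Mutants 2 and 3 were low in both Hcrt and the striatal genes. Their part in the differences between the classes was not tested.

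Hippocampal markers were uneven across all 8 arrays. The dentate gyrus markers Prox1 (2.50 to 5.08) and Tdo2 (2.34 to 6.28) were at or below the absent controls in several arrays of both classes. Dsp (3.25 to 7.93) was below the highest absent control only in normal 4 (3.25) and mutant 4 (3.43). In normal 2, Prox1, Dsp and Tdo2 read 3.46, 4.21 and 3.03. All 8 dentate genes measured differed downward, with a median of -0.27 (-0.05 without mutant 3). The CA1 markers differed by a median of -1.16 over 4 genes (-0.68 without mutant 3), among them Pou3f1 (-1.4 ± 0.51) and Wfs1 (-0.70 ± 0.40). None of the 4 were among the 19, which are 0.153% of all genes. The 6 CA3 and CA2 genes had a median of 0.24, which turned to -0.19 without normal 2. Genes of excitatory neurons of the forebrain were lower in all 11, with a median of -1.06 (-0.47 without mutant 3), led by Crym (-2.89 ± 1.43) and Itpka (-2.03 ± 1.26), but mutant 1 read 7.51 for Crym and mutant 2, a low array, 4.72. Choroid plexus genes were highest in a high array (mutant 1, mean 8.00) and a low one (mutant 3, 7.02), and the means of the remaining 6 arrays spanned 4.43 to 5.39. All 12 differed upward with a median of 0.60, which turned to -0.13 without mutant 1. Habenular genes differed upward in 7 of 7 (median 0.63, and 0.23 without mutant 3) and ependymal genes in 3 of 4 (median 0.63). Immediate early genes, which follow recent activity of neurons, differed downward in 8 of 10 (median -0.79, and -0.39 without normal 2), led by Egr2 (-2.15 ± 0.65). Oligodendrocyte (0.12), microglia (0.15), endothelial (0.028) and meningeal (0.026) genes had medians of at most 0.15. A measure of RNA quality, 3' minus 5' control values, was 0.30 to 0.55 in the high arrays and 0.22 to 0.75 in 4 low arrays, and 3.58 in normal 1.

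**Figure D4:**
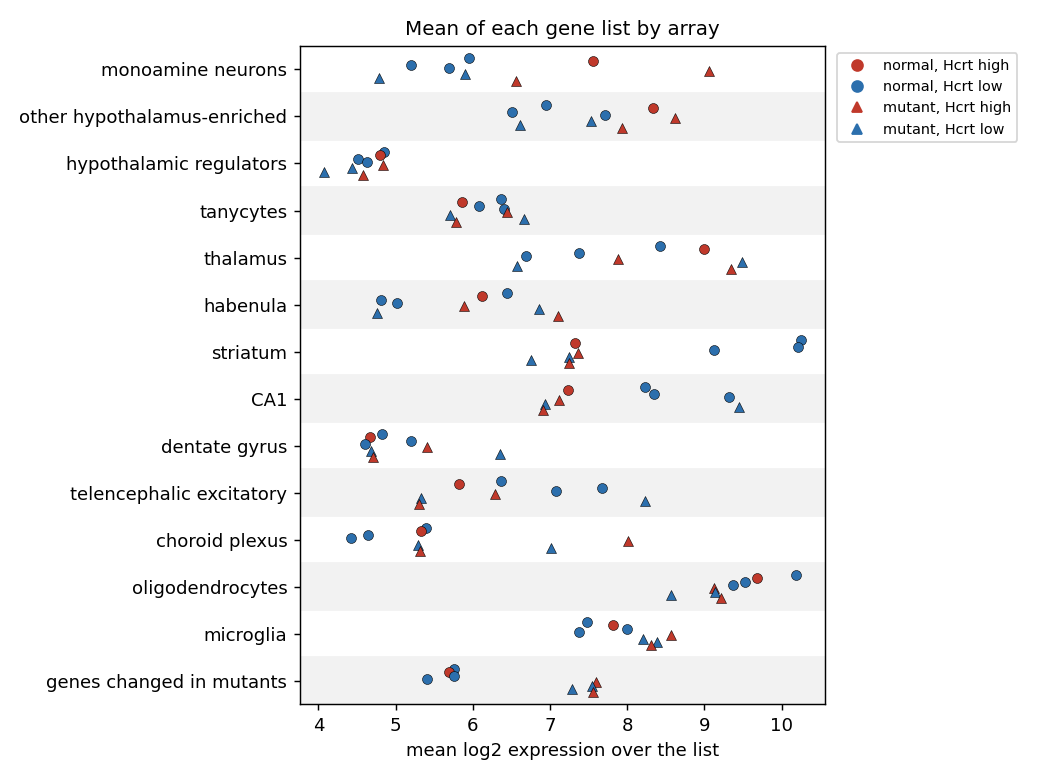
Mean log2 expression over each gene list (horizontal axis) in each of the 8 arrays. Each point is 1 array, with circles for normals, triangles for mutants, red for high and blue for low Hcrt arrays, and the lists run from hypothalamic through neighbouring and hippocampal to cell types. Thalamic means are 9.0, 7.87 and 9.35 in the high arrays and reach 9.49 in the low array mutant 2, and striatal means are highest in normals 1, 3 and 4.

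The comparison the labels set out, mutant against normal, was fitted with the Hcrt class as a term to see what the class leaves of it. At an adjusted p of 0.05 in limma, the fit with the term called 9 genes higher in mutants (0.0726%) and 1 lower (0.00807%), and 662 genes had an unadjusted p under 0.05. Leaving the term out gave 12 higher (0.0968%) and 1 lower (0.00807%), and 9 genes passed in both fits. The phagocyte genes Cst7 (3.18 ± 0.19 SE, adjusted p = 0.00156) and Gpnmb (3.28 ± 0.19, adjusted p = 0.00156) led, followed by Mpeg1 (2.04, adjusted p = 0.00881) and Clec7a (3.41, adjusted p = 0.00910). Lgals3bp, a secreted glycoprotein that binds galectins, passed with the term (1.03 ± 0.11, adjusted p = 0.0330) and missed the threshold without it (adjusted p = 0.0593). Lpar1, a lysophosphatidic acid receptor, fell by 1.13 (adjusted p = 0.0330). None of the 122 hypothalamic genes passed in either fit, and 12 had an unadjusted p under 0.05 with the term.

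The leading genes of the genotype comparison overlapped between high and low arrays of the mutants. Cst7 read 6.41 and 6.96 in the high mutants 1 and 4 and 6.52 and 6.0 in the low mutants 2 and 3. Gpnmb read 7.30 and 7.48 against 7.65 and 6.79 in the same order, and the high minus low difference was 0.09 ± 0.20 (SE). With the class as a term, Hcrt differed by -0.27 between genotypes, Avp by -0.59 and Oxt by -0.32. Trh differed by -0.79 (unadjusted p = 0.0079, adjusted p = 0.606 in limma). Without normal 2, mutant 1 or mutant 2 the count of genes that rose was 2, without mutant 4 it was 3, without normal 3 it was 4 and without mutant 3 it was 5, and the other 2 arrays left 7 each. Cst7 and Gpnmb passed without each of the 8 arrays in turn (adjusted p in limma up to 0.0350). Mpeg1 and Clec7a passed without 4 of the 8 (up to 0.102 and 0.105). Lgals3bp (0.0652 to 0.263) and Lpar1 (0.0543 to 0.238) missed the threshold whichever array was left out.

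Gusb, the gene that is mutated, was read by 2 probe sets. The brighter read 6.40, 6.59 and 5.99 in normal 2, mutant 1 and mutant 4, and 5.12, 5.87, 5.70, 5.55 and 5.60 in normals 1, 3 and 4 and mutants 2 and 3. It was higher in all 3 high arrays, by 0.76 ± 0.22 (SE), which is below the minimum of 1. The other read 6.56, 5.4, 5.83 and 6.02 in normals 1 to 4 and 4.51, 4.71, 4.36 and 4.62 in mutants 1 to 4, so that all mutants lay below all normals. Between the classes it differed by -0.30 and overlapped. The probe sets therefore differed, with the genotypes apart on this one and overlapping on the brighter one.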

How the data were processed

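RNA of 8 right hippocampi (4 normal, 4 mutant) was measured on 1 Affymetrix mouse array each. Per the submitters' processing notes, the authors used RMA and GCOS 1.4 to make the deposited log2 values of each probe set. Scanner files were not used here. Of 22690 probe sets, 64 were controls, 20380 carried 1 gene symbol, 691 several and 1555 none, and 20351 (99.9%) of those with 1 symbol matched the GRCm38.p6 gene table. The probe set with the highest mean stood for a gene, which gave 12393 genes, and no dim gene was removed. The number of arrays limits the precision, since arrays give no counts.

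High minus low was fitted with limma 3.58.1 in R 4.3.3 with genotype as a term. A gene was higher or lower with a difference of at least 1 and no overlap. Mutant minus normal was fitted with the class as a term (lmFit, eBayes, Benjamini-Hochberg over all genes, adjusted p 0.05). Hcrt was compared between genotypes by a two-sided exact permutation test. The members, lists and call rule were chosen with earlier results of these data known. Genes were named by this rule: all measured peptide genes, up to 5 members of each other hypothalamic list and 3 of each other list with the largest differences, the 15 largest increases and decreases of called genes above the absent controls, up to 8 genes per direction between genotypes, and Gusb. The scripts were tested on simulated data. Sequences are those of RefSeq (GRCm38.p6). Proteins were not used here. Alternatives covered the probe set choice, filters, normalization, sex, age, the class definition, eBayes settings, array weights and leaving out arrays. Figures were drawn with Python 3.11.15.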

Additional observations from a re-analysis of the deposited data

Results flagged for a closer look

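Of 110 groups of 4 arrays checked, 6 held an array far from the other 3, where chance flags about 1 group in 20. In normals, Hcrt was 10.35 in normal 2 against 4.70 to 4.75, and Avp was 12.31 against 5.29 to 6.12. The mean of the list for peptides of the supraoptic and paraventricular nuclei was 9.0 in normal 2 against 6.52 to 6.75. These 3 describe the array that the rule placed apart. In mutants, the mean of the CA1 genes was 9.45 in mutant 3 against 6.91 to 7.12, and the mean of the oligodendrocyte genes was 8.57 in mutant 3 against 9.13 to 9.21. The mean of the endothelial genes was 6.86 in mutant 1 against 7.09 to 7.12 in the other 3 mutants.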

How the results depend on the processing

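Leaving out normal 1 with mutant 1, and normals 1, 3 and 4, were alternatives chosen after seeing the data (46 and 54 higher genes). So was a random block for age, which gave 42 higher and 19 lower genes between classes, and 7 higher and 1 lower between genotypes. The 43 higher genes became 28 without the 40% dimmest genes and 11 at a difference of at least 2. Leaving out 1 array gave 41 to 92, with 92 without mutant 2 and 90 without mutant 4. The 19 lower genes became 44 in mutants alone, 1 at a difference of at least 2 and 32 without normal 1 and mutant 1. Leaving out 1 array gave 20 to 145, with 37 without mutant 1, 145 without mutant 2 and 57 without mutant 4. The cause was not tested. Between genotypes, the 9 that rose became 45 with array weights and 0 without normal 1 and mutant 1, where 870 had an unadjusted p under 0.05 in limma, and leaving out 1 array gave 2 to 7. The 1 that fell became 5 with array weights. It became 0 with quantile normalization again, with age as a term and with trend and robust eBayes (unadjusted 240, 288 and 319 genes in limma), and 0 without normal 1 and mutant 1 (366). Leaving out 1 array gave 0 to 1. The Hcrt difference between genotypes was 0.17 to 2.47 without 1 array (two-sided exact permutation p = 0.343 to 0.943). Cst7 had an adjusted p of 0.000307 to 0.104 over alternatives, Lgals3bp of 0.00767 to 0.283 and Lpar1 of 0.00581 to 0.238. Without probe sets marked for cross-hybridisation, Sytl4 turned to -0.015 and Ypel1 to 0.13. Each Hcrt probe set alone was not run, since 1 probe set measured Hcrt. No paired analysis was possible because the labels number no replicates.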
